A study of Mus musculus with 22 samples.

Results

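Skipped exons in genes of the splicing machinery and of the DEAD-box and DEAH-box RNA helicases were examined in mouse embryonic stem (ES) cells. The members are all skipped-exon events whose whole span lies inside the mm10 span of a protein-coding gene with a symbol starting Ddx, Dhx, Prpf, Sf3, Snrn, Snrp, Lsm or U2af. This rule gave 69 events of the 10873 in the series, in 39 of the 112 genes that fit it, and 53 of the 69 were listed in every library. The values used are the deposited inclusion level and the distinguishing reads. The level is a fraction from 0 to 1 that estimates the inclusion isoform's share of the inclusion and skipping isoforms of that event. It is not a share of all transcripts of the gene. Distinguishing reads are those that match the inclusion isoform alone or the skipping isoform alone.

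The study set ES cells without DNA methyltransferases and cells depleted of heterochromatin protein 1 (HP1), a reader of methylated histone H3, against wild-type cells, to ask how DNA methylation reaches splicing and whether HP1 is a link between them. TKO cells carry a triple knockout of Dnmt1, Dnmt3a and Dnmt3b, come from another source than the wild-type line, and were used with or without siRNA against HP1alpha, HP1beta and HP1gamma at 80, 80 and 120 nM, the triple knock-down in TKO. WT cells are R1 ES cells, used after siRNA against all 3 proteins at 60 nM each (the triple knock-down in WT), after siRNA against HP1alpha, HP1beta or HP1gamma alone at 90 nM, or untransfected. RNA was taken 48 h after transfection, all cells were grown feeder-free on gelatin in the presence of leukaemia inhibitory factor, and no library from cells given a control siRNA was analysed here. Each of the 7 groups holds 2 replicates that the authors pooled into 1 library, so every test below compares libraries and has no replicate check. TKO and WT libraries were 50-base single-end reads, whereas the 5 knock-down libraries were read in pairs of 101 bases, so that knock-down, transfection and sequencing cannot be told apart in a comparison of transfected with untransfected cells.

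In splicing, the U1 particle binds the start of an intron, U2AF binds its end and helps the U2 particle to the branch site, and the U4/U6.U5 tri-snRNP then joins to form the catalytic core. A ring of Sm proteins encircles the U1, U2, U4 and U5 RNAs, a ring of LSM proteins sits on the end of U6, and DEAD-box and DEAH-box helicases use ATP to drive the rearrangements between these stages. Genes of RNA-binding and splicing proteins are often spliced alternatively themselves, in some cases through exons that add a premature stop codon. The name rule also takes in genes outside the spliceosome: Ddx58 encodes the viral RNA sensor RIG-I, Ddx11 a DNA helicase of sister chromatid cohesion, Ddx4 the germ cell helicase Vasa, and Lsmem1 a membrane protein that shares letters of its name only.

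The transfected cells gave between 4677236 (triple knock-down in WT) and 9750348 (HP1alpha knock-down) event reads, TKO 25200437 and WT 25941844. At exons of the targeted genes, reads scaled to library size stood at 0.215 to 0.375 times the other single knock-downs in the single knock-downs. They stood at 0.281 to 0.574 times in the triple knock-down in WT and at 0.449 to 0.675 times in the triple knock-down in TKO. The reference was single knock-downs of WT throughout, so the ratios for TKO cells also hold the difference between cell lines. Exons of Dnmt3a and Dnmt3b stood at 0.443 and 0.142 times WT in TKO, and the labels do not say which exons the knockout removed. Of 16 ES cell markers, 5 or 6 had a listed event in each library, with summed levels of 3504 and 3628 RPM (reads of a gene's event per 1000000 event reads) in the TKO libraries against 4485 to 4938 in the WT libraries. Of 15 markers of differentiated cells and fibroblasts, Fn1 was listed in all 7 libraries and Sox17 in both TKO libraries, with sums of 348 to 540 RPM. The part of these marker differences in the splicing results was not tested. Inclusion reads per skipping read numbered 2.96 to 3.22 in the 5 knock-down libraries, against 6.82 in TKO and 6.25 in WT.

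The members were covered more deeply than the exons of the series at large. A member had a median of 64 to 112 distinguishing reads in the knock-downs, against 48 to 66 over all events, and of 227 in TKO and 198 in WT, against 100 and 96 over all events. Member exons were 9 to 1360 nt long with a median of 101 nt, close to the median of 105 nt over all events, and 30 of 69 (43.5%) were a multiple of 3 nt long, against 46.6% of all events. Their introns were shorter, with medians of 592 nt before and 776 nt after the exon, against 1985 and 1949 nt over all events. In WT, 33 of 68 listed members (48.5%) had a level of at least 0.9, 16 (23.5%) a level of at most 0.1 and 19 (27.9%) lay between, against 37.9%, 24.0% and 38.1% of all events. These are descriptions of 1 library each, since events of a gene share their reads.

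**Figure D1:**
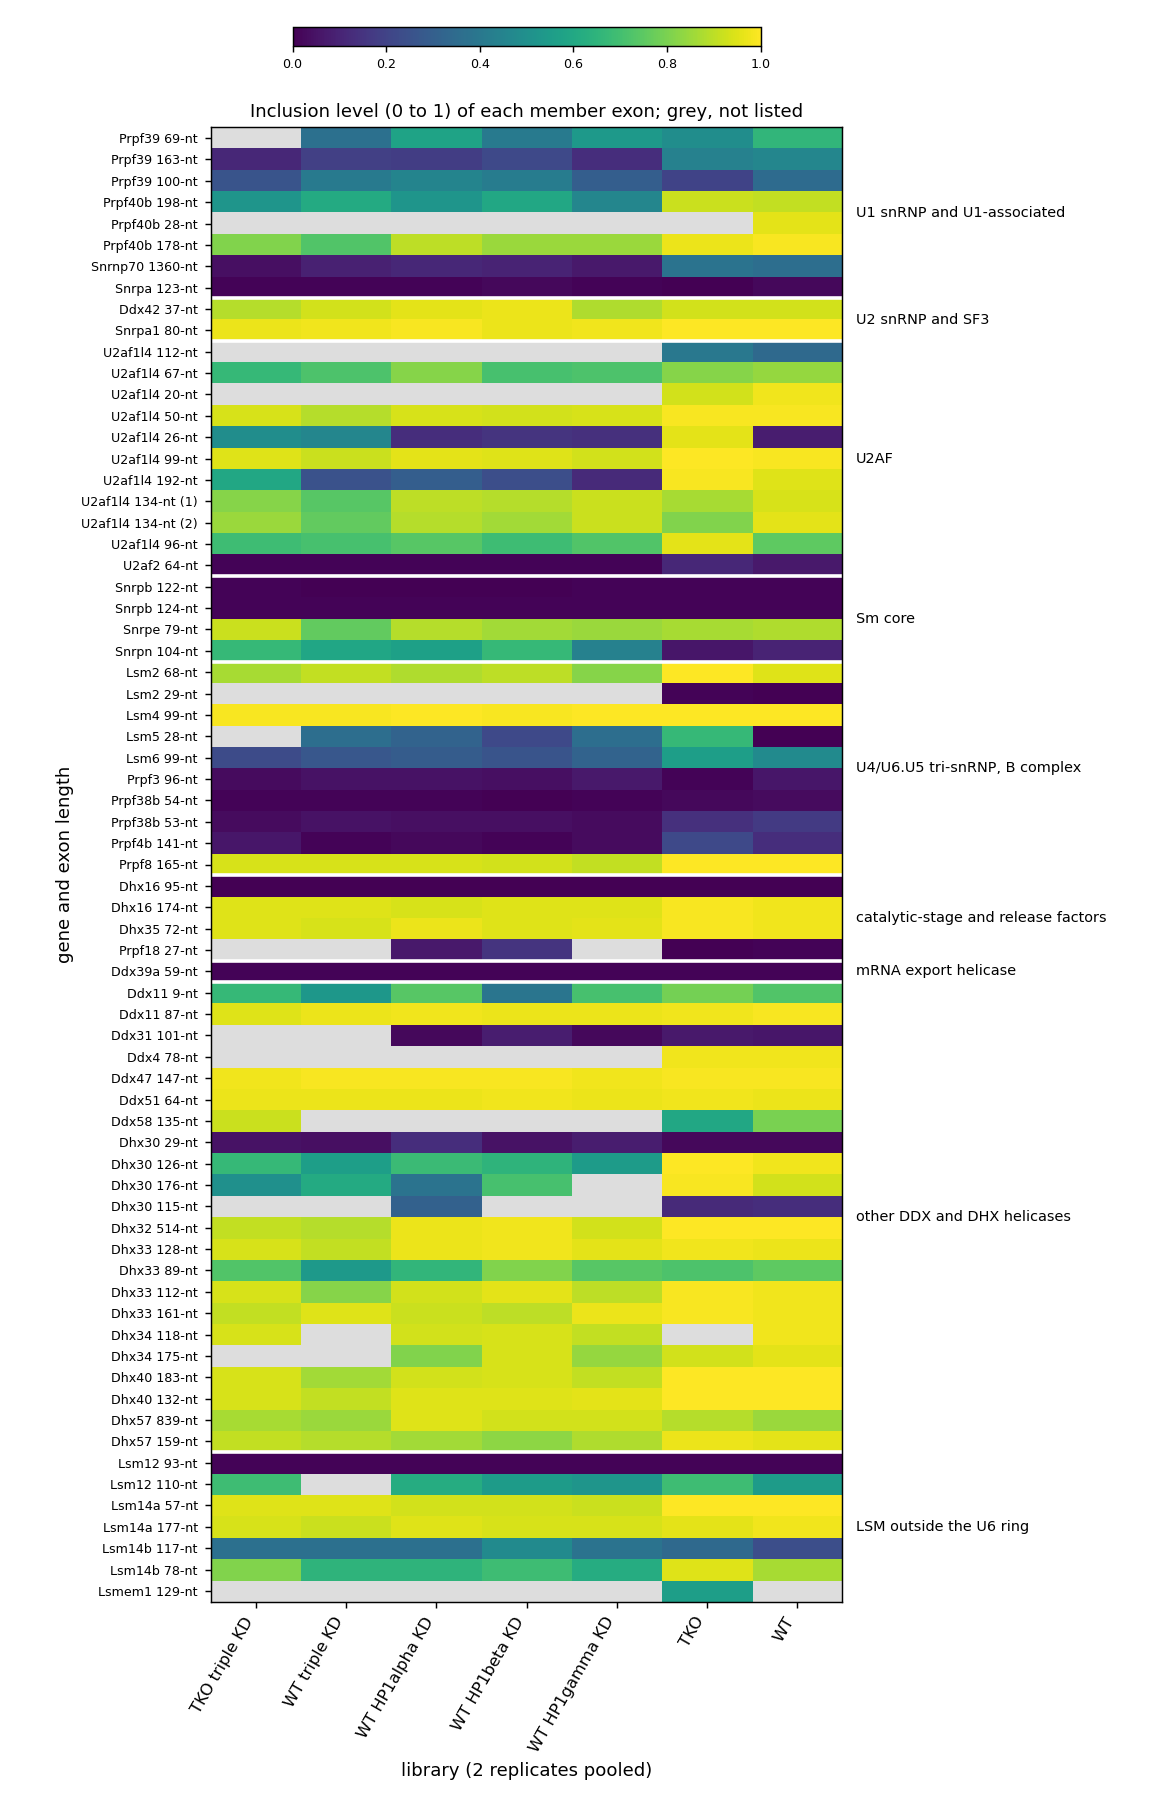
Deposited inclusion level (colour, 0 to 1) of the 69 exons (rows, gene and exon length in nt, grouped by role) in the 7 pooled libraries (columns); grey cells were not listed. Levels of 14 exons are at least 0.9 and of 8 at most 0.1 in every library, and the changes of colour lie mainly between the 5 transfected libraries and the untransfected TKO and WT libraries.

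Members differed widely in how much their level varied. Of the 53 listed everywhere, 14 had a level of at least 0.9 and 8 a level of at most 0.1 in all 7 libraries. The range over the 7 libraries was at most 0.1 for 26 of the 53 and above 0.3 for 10, with a median of 0.11. Over the 5 knock-down libraries alone the median range was 0.07, and the difference between TKO and WT was at most 0.1 for 49 of the 53.

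The exon with most distinguishing reads in several role groups was among these steady ones. In Dhx16, the DEAH-box helicase that activates the assembled spliceosome, the 174-nt exon (chr17:35890915-35891088) lay between 0.94 and 0.99 in all 7 libraries. Lsm4, a subunit of the U6 ring, included its 99-nt exon (chr8:70677778-70677876) at 0.99 to 1.0. For Snrpa1, a protein of the U2 particle, the 80-nt exon (chr7:66070119-66070198) was at 0.97 to 1.0. Ddx47, a nucleolar helicase of ribosome assembly, held its 147-nt exon (chr6:135018051-135018197) at 0.98 or 0.99, and Lsm14a, a P-body protein, its 57-nt exon (chr7:34347926-34347982) at 0.92 to 1.0. At the other end, the 124-nt exon of Snrpb (chr2:130176629-130176752), which encodes the Sm proteins B and B', and the 59-nt exon of Ddx39a (chr8:83721466-83721524), an mRNA export helicase, were at 0.01 in every library. Both were deeply read, with 12104 and 8358 distinguishing reads over the 7 libraries.

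TKO was first compared with WT without transfection, where read length and treatment are the same. Of 61 members with at least 20 distinguishing reads in both libraries, 1 was called, higher in TKO, against 4.57% of the 7695 exons tested in the series, of which 3.18% were called higher. This test could not call every exon with enough reads: 32 of the 61 members and 3638 of the 7695 exons had reads of 1 class only in both libraries, which fixes p at 1. Of exons with reads of both classes, 1 of 29 members (3.45%) and 8.68% of 4057 exons were called, a count made after seeing the data. A call needed an adjusted p of at most 0.05 in a two-sided Fisher's exact test of distinguishing reads (Benjamini-Hochberg over all tested exons) and a level difference of at least 0.1. The median difference of the members was 0.00, as over all tested exons, and the median absolute difference was 0.01, against 0.02.

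The called exon is the 96-nt exon of U2af1l4 (chr7:30564703-30564798, + strand), which encodes U2AF26, a paralog of the U2AF subunit that recognises the AG at the end of an intron. Its level was 0.96 in TKO, against 0.75 in WT, a difference of 0.21 with deposited intervals of 0.89 to 0.99 and 0.68 to 0.81. TKO had 121 inclusion reads and 0 skipping reads, which allows a skipping share of up to 2.48% of distinguishing reads, and WT had 212 and 34, an inclusion share of 86.2% (95% Wilson interval 81.3 to 89.9%, counting error only). The adjusted Fisher p was 3.51e-05. Under the triple knock-down the exon was at 0.69 in TKO and 0.71 in WT, with 18 of 155 and 9 of 88 distinguishing reads for skipping, and the 3 single knock-downs lay at 0.69 to 0.74. TKO without transfection was therefore the only one of the 7 libraries above 0.75. The call rests on the skipping reads: when inclusion reads were set against all other reads that match an isoform, a test added after seeing the data, 121 of 300 in TKO and 212 of 548 in WT gave an adjusted Fisher p of 0.949.

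Another 4 members passed the adjusted p but differed by less than 0.1. Lsm14b, a P-body protein related to Lsm14a, had its 78-nt exon (chr2:180031794-180031871) at 0.95 in TKO and 0.87 in WT, from 1162 inclusion and 47 skipping reads against 880 and 91 (adjusted Fisher p = 8.39e-06). With a difference of 0.08 it lay just outside the threshold. Under the triple knock-down the same exon stood at 0.81 in TKO and 0.65 in WT, with intervals apart, but 202 and 20 reads against 108 and 27 gave an adjusted Fisher p of 0.244. Lsm2, of the U6 ring, had its 68-nt exon (chr17:34982620-34982687) at 1.0 in TKO and 0.95 in WT, where TKO had 0 skipping reads of 737 and WT 39 of 1260 (adjusted Fisher p = 1.04e-06). The same held for the 96-nt exon of Prpf3, a U4/U6 protein, at 0.01 in TKO and 0.06 in WT (adjusted Fisher p = 0.0151), and the 64-nt exon of U2af2, the large U2AF subunit that binds the polypyrimidine tract, at 0.11 in TKO and 0.07 in WT (adjusted Fisher p = 0.0169).

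**Figure D2:**
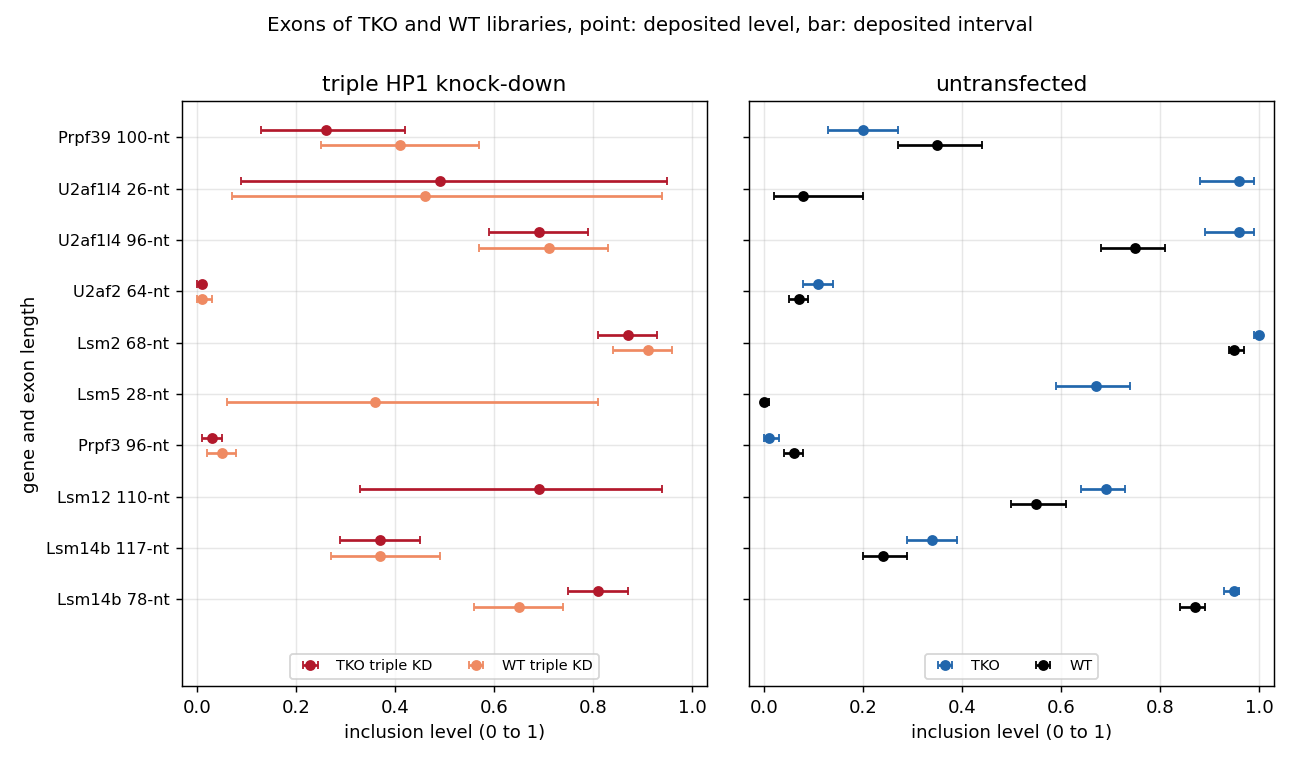
Inclusion level (horizontal axis, 0 to 1; point, deposited level; bar, deposited interval) of the 10 exons that passed the adjusted p between TKO and WT by distinguishing reads (5) or were called with all other matching reads (5), in TKO and WT libraries after the triple HP1 knock-down (left) and without transfection (right). The 96-nt exon of U2af1l4 is at 0.96 in TKO and 0.75 in WT without transfection but at 0.69 and 0.71 under the knock-down, and intervals under the knock-down are wide for the 28-nt exon of Lsm5 and the 26-nt exon of U2af1l4.

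Other exons differed in level between TKO and WT with no skipping read in either library, so that distinguishing reads could not call them. Lsm5, another subunit of the U6 ring, had its 28-nt exon (chr6:56703006-56703033, - strand) at 0.67 in TKO (interval 0.59 to 0.74) and 0.00 in WT (0.00 to 0.01). TKO had 227 inclusion reads among 1805 that match an isoform, and WT 0 among 1408, which allows a share of up to 0.213%. In the 4 knock-down libraries of WT that list this exon there were 0 inclusion reads and 1 or 2 skipping reads, and the deposited intervals ran at least from 0.06 to 0.74, so no order can be read. The 26-nt exon of U2af1l4 (chr7:30564203-30564228) was at 0.96 in TKO (0.88 to 0.99) and 0.08 in WT (0.02 to 0.20), from 60 inclusion reads among 203 matching reads against 2 among 223. No knock-down library had an inclusion read for it. Lsm12, whose protein is a partner of ataxin-2, had its 110-nt exon (chr11:102167087-102167196) at 0.69 in TKO and 0.55 in WT, with 706 and 363 inclusion reads and 0 skipping reads in both.

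With inclusion reads set against all other matching reads, 5 of 66 members were called, 4 higher in TKO and 1 lower, against 6.45% of 9541 exons called and 4.0% called higher. Exons whose level differed by at least 0.1 with intervals apart, whatever their reads and likewise counted after seeing the data, included 4 members of 66 listed, against 6.21% of 9996: the exons of 28 nt of Lsm5, 110 nt of Lsm12 and 26 and 96 nt of U2af1l4, all higher in TKO. The 5 members of the read test are the exons of Lsm5 (adjusted Fisher p = 2.31e-57), U2af1l4 (26 nt, 3.12e-17) and Lsm12 (0.00166) just named, the 117-nt exon of Lsm14b (chr2:180028958-180029074) at 0.34 in TKO and 0.24 in WT (0.0238), and the 100-nt exon of Prpf39 (chr12:65055434-65055533) at 0.20 in TKO and 0.35 in WT (0.0259). Prpf39 encodes a protein associated with the U1 particle. None of these 5 was called by distinguishing reads, and the 96-nt exon of U2af1l4 was not among them, so the exons called between TKO and WT depend on which reads are counted. Exons of 99 nt of Lsm6, at 0.56 in TKO and 0.48 in WT, and of 141 nt of Prpf4b, a kinase of the tri-snRNP, at 0.22 and 0.13, had adjusted Fisher p-values of 0.111 and 0.116 from distinguishing reads.

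Under the triple knock-down, TKO and WT libraries share platform and transfection, though not the siRNA doses. None of 41 tested members was called, against 0.469% of the 4473 exons tested, and 3 members had an unadjusted Fisher p under 0.05. With all other matching reads 0 of 44 members were called, against 1.07% of exons. Intervals apart with a level difference of at least 0.1 were found for 1 of 54 listed members, against 1.29% of exons. This was the 78-nt exon of Lsm14b given above. The member that passed the adjusted p was the 1360-nt exon of Snrnp70 (chr7:45381825-45383184), which encodes the U1-70K protein of the U1 particle. It stood at 0.04 in TKO and 0.09 in WT (adjusted Fisher p = 2.96e-05), which is below the threshold of 0.1.

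Single HP1 proteins were compared within the transfected WT cells by setting each single knock-down against the others. In each of the 3 comparisons 0 of 46 tested members were called. The background was 0.0% of 5250 exons for HP1alpha, 0.019% for HP1beta and 0.0% for HP1gamma, and 1, 4 and 1 members had an unadjusted Fisher p under 0.05. The triple knock-down against the 3 singles gave 0 of 42 members, against 0.0435% of 4594 exons, with 0 at an unadjusted Fisher p under 0.05. With all other matching reads 0 members were called in these 4 comparisons, against 0.348%, 0.0662%, 0.232% and 0.0559% of exons in the same order, and 0 had intervals apart with a difference of 0.1, against 0.156%, 0.0709%, 0.113% and 0.0158%. Over the 4 knock-downs of WT the level of a member ranged by a median of 0.06, and 38 of the 53 exons listed everywhere ranged by at most 0.1. Among the members of low p, the 117-nt exon of Lsm14b stood at 0.48 in the HP1beta knock-down, against 0.37 for HP1alpha and 0.38 for HP1gamma (unadjusted exact p = 0.0105, adjusted Fisher p = 1.0). For Snrnp70 the level was 0.07 in the HP1gamma knock-down against 0.11 and 0.10 in the others (adjusted Fisher p = 0.170).

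**Figure D3:**
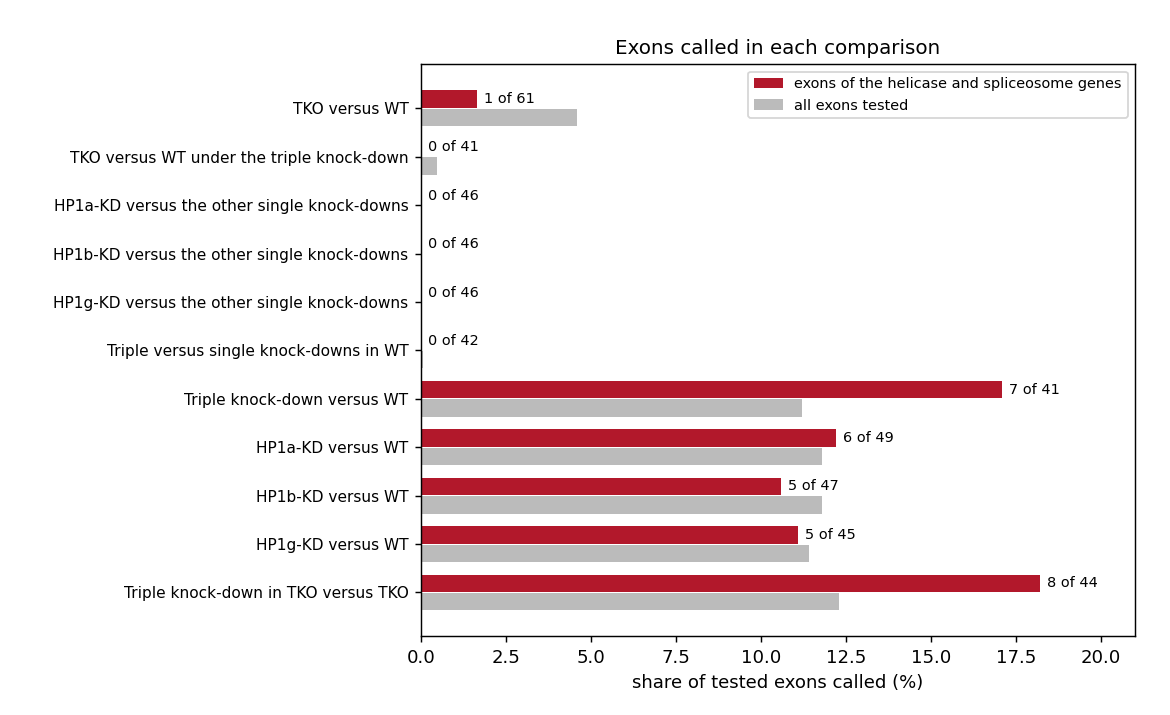
Share of tested exons called in each of the 11 comparisons (horizontal axis, %), for exons of the helicase and spliceosome genes (red, with the count) and for all exons tested (grey). Shares are at most 1.64% for the members where both sides have the same read length and 10.6 to 18.2% where transfected cells are set against untransfected ones. For all exons tested they are 0.0 to 4.57% and 11.2 to 12.3%.

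Transfected cells were then set against untransfected cells of the same line, where knock-down, transfection, read length and pairing of reads change together. In TKO cells the triple knock-down had 8 of 44 tested members called, all with a lower level, with a background of 12.3% called and 10.9% called lower. In WT cells the triple knock-down had 7 of 41 called, all with a lower level, with a background of 11.2% called and 9.37% called lower. For HP1alpha, HP1beta and HP1gamma against WT the counts were 6 of 49, 5 of 47 and 5 of 45, against 11.8%, 11.8% and 11.4% of all tested exons, and 2, 1 and 0 of these were higher. Exons called lower made up 10.2%, 9.91% and 9.84% of all tested in these 3 comparisons, and exons called higher 1.64% for HP1alpha and 1.92% for HP1beta. The exon of Snrnp70 is in all 5 counts with a lower level but a higher share of inclusion reads. Counting only exons whose reads and level moved the same way gave 7 members for the triple knock-down in TKO, 6 for that in WT, 5 for HP1alpha, 4 for HP1beta and 4 for HP1gamma, against 11.8%, 10.7%, 11.3%, 11.3% and 10.9% of all tested exons. Members with intervals apart and a difference of at least 0.1 numbered 13 of 56 listed for the triple knock-down in TKO, 12 of 56 for that in WT, 11 of 62 for HP1alpha, 9 of 61 for HP1beta and 10 of 59 for HP1gamma, against 18.8%, 17.8%, 17.3%, 17.5% and 18.4% of all listed exons. With inclusion reads set against all other matching reads the counts were 7 of 47, 13 of 45, 11 of 52, 8 of 51 and 7 of 49, against 25.7%, 25.6%, 25.3%, 26.2% and 26.5% of exons. The 4 comparisons in WT cells share the WT library. The median difference of the members was -0.05 for the triple knock-down in WT, against -0.04 over all exons, and -0.04 for that in TKO, against -0.04.

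**Figure D4:**
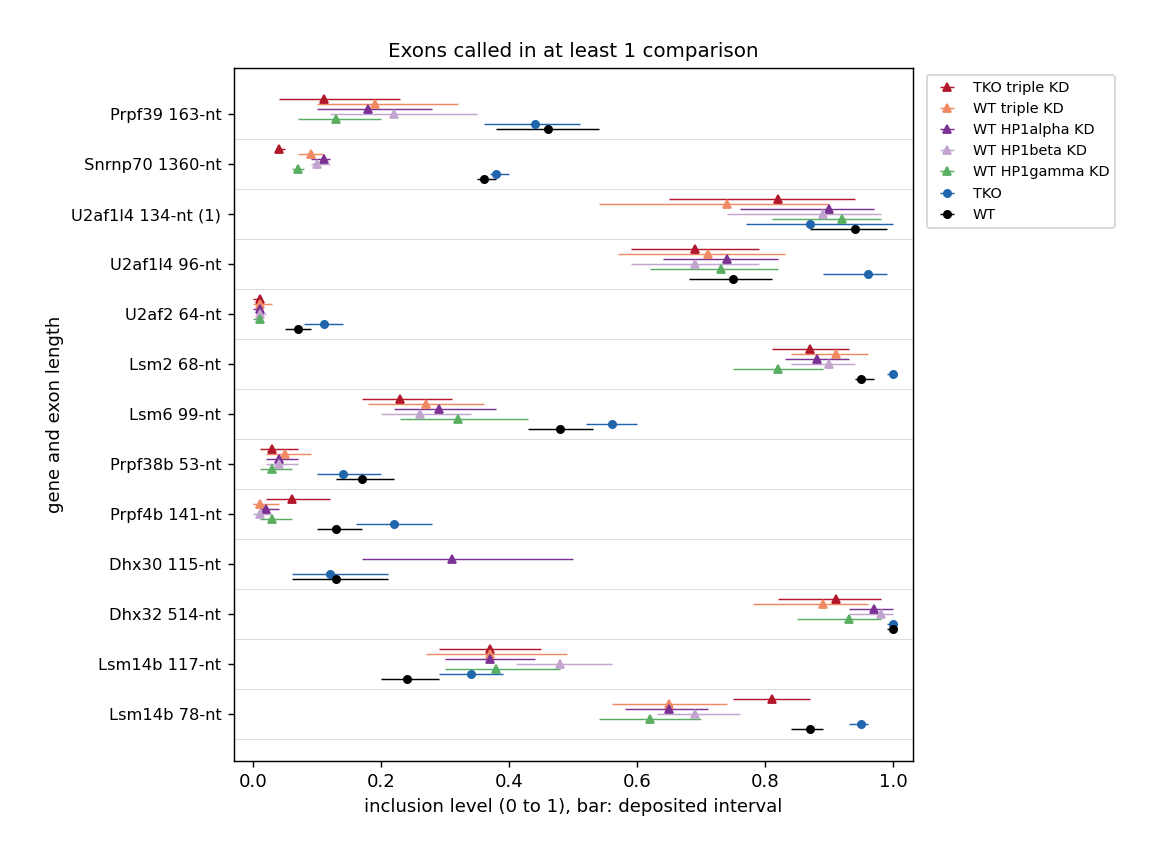
Inclusion level (horizontal axis, 0 to 1; point, deposited level; bar, deposited interval) of the 13 exons called in at least 1 comparison, in the 5 transfected libraries (triangles) and in TKO and WT without transfection (circles). For the exons of Snrnp70, Prpf38b, Prpf4b, Prpf39 (163 nt), Lsm6 and Lsm14b (78 nt) all 5 triangles lie below both circles. The same holds for U2af2, Lsm2, Dhx32 and U2af1l4 (96 nt), the last narrowly, at 0.74 for HP1alpha against 0.75 in WT. For Snrnp70 the share of inclusion reads moved the other way.

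The U1 group had 8 events in 4 genes, and 2 of these exons were called: 1 of 3 tested for the triple knock-down in TKO, 2 of 4 for that in WT and for HP1gamma and 1 of 4 for HP1alpha and HP1beta, against 9.37 to 10.9% of all tested exons called lower. For the 163-nt exon of Prpf39 (chr12:65043715-65043877) the level was 0.11 in the triple knock-down in TKO, 0.19 in that in WT, 0.18 for HP1alpha, 0.22 for HP1beta and 0.13 for HP1gamma, against 0.44 in TKO and 0.46 in WT. All 5 knock-down levels lay below both untransfected levels. It was called lower in the triple and the HP1gamma knock-down against WT, with 18 of 36 and 15 of 38 distinguishing reads for inclusion against 82 of 110 (adjusted Fisher p = 0.0453 and 0.00142). Neither call held when the odds ratio expected without a change was taken from exons of like length instead of 1, here called the length-set null (adjusted Fisher p = 0.872 and 0.176).

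Snrnp70 had the most distinguishing reads of the group, and its 2 measures moved in opposite directions. The level was 0.04 in the triple knock-down in TKO, 0.09 in that in WT, 0.11 for HP1alpha, 0.10 for HP1beta and 0.07 for HP1gamma, against 0.38 in TKO and 0.36 in WT. It passed the call as lower in all 5 comparisons, for example with an adjusted Fisher p of 1.42e-52 in TKO. Inclusion, however, took 85.2% of distinguishing reads in the triple knock-down in TKO (95% Wilson interval 82.95 to 87.26%) and 92.5% (90.8 to 94.0%) in that in WT, against 59.7% (57.8 to 61.5%) in TKO and 58.8% (57.0 to 60.7%) in WT. No direction of splicing can therefore be given for this exon between transfected and untransfected cells. Its 1360 nt make it the longest member.

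Exons of 198 and 178 nt of Prpf40b, whose protein is the mammalian relative of the yeast U1 factor Prp40, had lower levels in all knock-downs without a call. The 198-nt exon was at 0.46 to 0.61 in the 5 knock-downs, against 0.92 in TKO and 0.91 in WT, on 4 to 17 inclusion reads and 0 skipping reads in the knock-downs. The 178-nt exon was at 0.73 to 0.90, against 0.97 and 0.99, also with 0 skipping reads in all 7 libraries. With 0 skipping reads neither exon could be called. The widest deposited intervals were 0.07 to 0.94 for the 198-nt exon (HP1beta) and 0.38 to 0.98 for the 178-nt exon (triple knock-down in WT).

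In the U2 and SF3 group, 13 genes fit the rule but only Snrpa1 and Ddx42, a helicase found with SF3b, had an event, and 0 of these 2 exons were called in any comparison. The 37-nt exon of Ddx42 lay between 0.88 and 0.97. In the Sm core, 0 of 4 events were called, with 3 or 4 tested per comparison, against the same shares of all tested exons. Within it, the 104-nt exon of Snrpn (chr7:60071885-60071988), which encodes the SmN protein and is imprinted, was at 0.44 to 0.67 in the 5 knock-downs, against 0.06 in TKO and 0.10 in WT. Its inclusion and skipping reads numbered 8 to 15 and 2 to 4 in the knock-downs, against 44 and 9 in TKO and 44 and 8 in WT, so it lacked the 20 reads for a test. The inclusion share of these reads, 66.7 to 88.2% in the knock-downs, against 83.0% in TKO and 84.6% in WT, did not follow the levels. The whole event also lies in the span of the non-coding gene Snhg14.

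U2AF genes carried 11 events, 10 of them in U2af1l4. The 10 events of U2af1l4 overlap in part: exons of 26, 99 and 192 nt share their first base, those of 20 and 50 nt share theirs, and the 134-nt exon is listed once after the 99-nt and once after the 192-nt form of the exon before it. Reads are therefore shared between these events. Levels in the untransfected cells were 0.99 and 1.0 in TKO for the 192-nt and 99-nt exons, against 0.95 and 0.99 in WT. In the 5 knock-downs the 99-nt exon lay at 0.92 to 0.96, whereas the 192-nt exon lay at 0.12 to 0.60 on 7 to 26 inclusion reads and 0 skipping reads. The 26-nt and 192-nt exons had the widest ranges of all members, 0.88 and 0.87, and neither could be tested across platforms with both classes of reads.

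**Figure D5:**
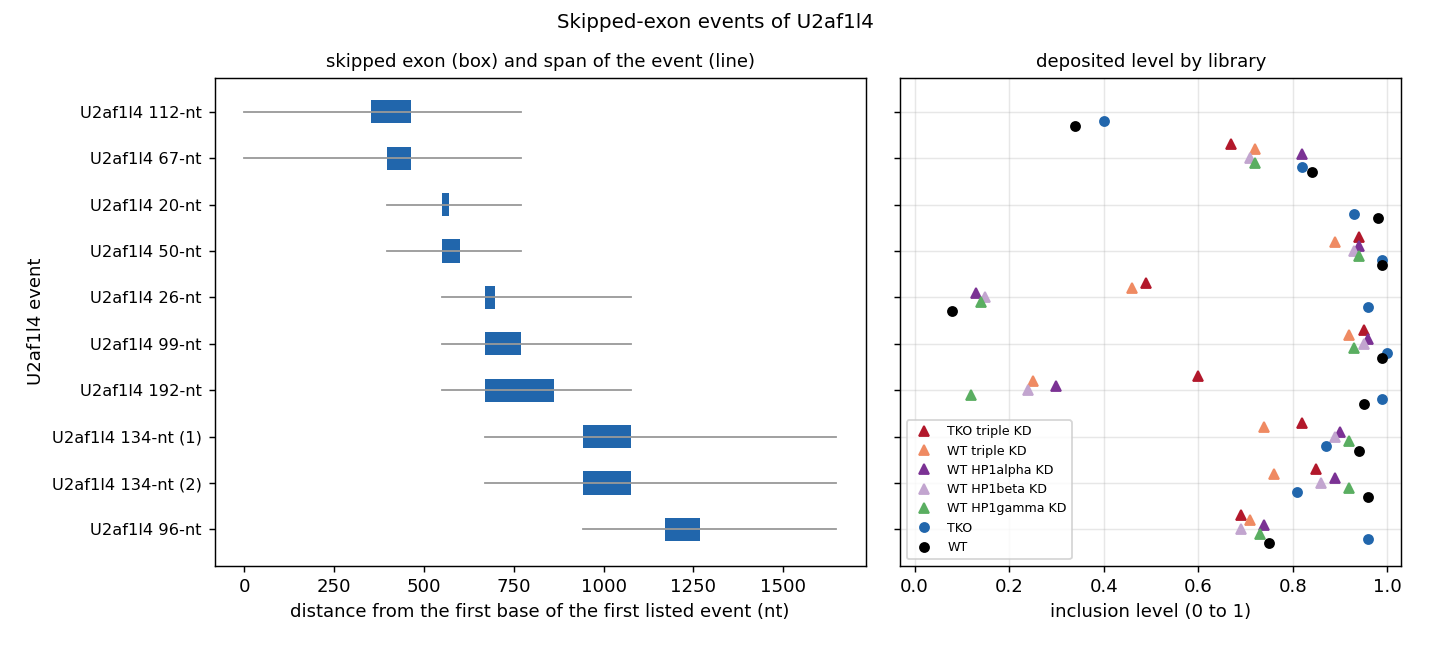
Left, position of the skipped exon (box) and span (line) of the 10 events of U2af1l4, in nt from the first base of the first event; right, their deposited level (0 to 1) in the transfected (triangles) and untransfected (circles) libraries. The 26-nt exon is at 0.96 in TKO and at 0.08 in WT, and the 99-nt exon that starts at the same base is above 0.9 in all 7 libraries.

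Calls against untransfected cells in the U2AF group numbered 2 of 7 tested in TKO, against 10.9% of all exons called lower, and 1 of 5 for the triple knock-down in WT, against 9.37%. The 96-nt exon of U2af1l4 was lower in the triple knock-down in TKO than in TKO, at 0.69 against 0.96 (137 inclusion and 18 skipping reads against 121 and 0, adjusted Fisher p = 0.000258). The 134-nt exon (chr7:30564474-30564607), listed after the 99-nt form, was lower in the triple knock-down in WT, at 0.74 against 0.94 in WT (61 and 3 reads against 314 and 0, adjusted Fisher p = 0.0302), but its intervals overlapped and the call was lost under the length-set null (adjusted Fisher p = 0.110). For the 64-nt exon of U2af2 (chr7:5068733-5068796) the level was 0.01 in all 5 knock-downs, against 0.11 in TKO and 0.07 in WT. TKO had 46 inclusion and 0 skipping reads for it, whereas the triple knock-down in TKO had 3 and 318 (adjusted Fisher p = 5.3e-53). The reads and the level differ in scale here: inclusion took 100.0% of distinguishing reads in TKO at a level of 0.11, with 1906 further reads matching both isoforms, so this p does not measure the difference of 0.10. With a difference of 0.10 it lies just inside the threshold in TKO, and with 0.06 just outside in WT.

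The tri-snRNP and B complex group had 10 events in 8 genes, and 4 of its 8 tested members were called lower in the triple knock-down in TKO, against 10.9% of all tested exons, and 2 of 8 in each of the 4 knock-downs of WT, against 9.37 to 10.2%. With so few exons in a role group these shares are descriptions. Prpf38b, a B complex protein, had its 53-nt exon (chr3:108910343-108910395) at 0.03 in the triple knock-down in TKO, 0.05 in that in WT, 0.04 for HP1alpha, 0.04 for HP1beta and 0.03 for HP1gamma, against 0.14 in TKO and 0.17 in WT. The exon was called lower in all 5 comparisons, with adjusted Fisher p-values from 2.57e-07 to 0.00233, and was still called in all 5 under the length-set null. The 141-nt exon of Prpf4b (chr13:34899315-34899455) stood at 0.06, 0.01, 0.02, 0.01 and 0.03 in the same order of knock-downs, against 0.22 in TKO and 0.13 in WT, and was also called lower in all 5. Its calls in the HP1gamma knock-down and in TKO were lost under the length-set null (adjusted Fisher p = 0.206 and 0.102).

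Both called LSM genes of the U6 ring were called in TKO cells. The 99-nt exon of Lsm6 (chr8:78819987-78820085) was at 0.23 in the triple knock-down in TKO, 0.27 in that in WT and 0.29, 0.26 and 0.32 in the single knock-downs, against 0.56 in TKO and 0.48 in WT. The call was in TKO, from 61 inclusion and 57 skipping reads against 406 and 120 (adjusted Fisher p = 1.55e-06, and 0.0661 under the length-set null). The 68-nt exon of Lsm2 was at 0.87 in the triple knock-down in TKO, against 1.0 in TKO (339 and 12 reads against 737 and 0, adjusted Fisher p = 1.61e-05). In WT cells this exon stood at 0.82 to 0.91 in the 4 knock-downs, against 0.95, with no call. Prpf8, the central protein of the U5 particle, held its 165-nt exon (chr11:75489742-75489906) at 0.91 to 0.94 in the knock-downs, against 1.0 in TKO and in WT.

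Outside the spliceosome, Lsm14b had 2 exons with calls in opposite directions. Its 78-nt exon was at 0.81 in the triple knock-down in TKO, 0.65 in that in WT and 0.65, 0.69 and 0.62 in the single knock-downs, against 0.95 in TKO and 0.87 in WT. The exon was called lower in all 5 comparisons with adjusted Fisher p-values from 0.000937 to 0.0227, and all 5 calls were lost under the length-set null (0.0778 to 0.370). The 117-nt exon was at 0.37 in both triple knock-downs and at 0.37, 0.48 and 0.38 in the single ones, against 0.34 in TKO and 0.24 in WT. It was called higher for HP1alpha (adjusted Fisher p = 0.0459) and HP1beta (adjusted Fisher p = 9.31e-06) against WT.

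Among the other helicases, 12 genes with 22 events, 2 exons were called once each. For the triple knock-down in WT 1 of 11 tested was called, lower, against 9.37% of all tested exons called lower. For HP1alpha against WT 1 of 17 tested was called, higher, against 1.64% called higher. Dhx32 included its 514-nt exon (chr7:133759400-133759913) at 0.89 in the triple knock-down in WT, against 1.0 in WT, with 193 inclusion and 3 skipping reads against 1182 and 0 (adjusted Fisher p = 0.0202), and with a difference of 0.11 it lies just inside the threshold. The call was lost under the length-set null (adjusted Fisher p = 0.112). Dhx30, a helicase with a role in mitochondrial translation, had its 115-nt exon (chr9:110116678-110116792) at 0.31 in the HP1alpha knock-down and 0.13 in WT (13 and 14 reads against 7 and 37, adjusted Fisher p = 0.0338), with overlapping intervals. Its 126-nt exon ranged from 0.55 to 0.68 in the 5 knock-downs, against 1.0 in TKO and 0.98 in WT, on 3 to 26 inclusion reads in the knock-downs. The 9-nt exon of Ddx11 ranged from 0.39 to 0.79 on 1 to 10 inclusion reads and 0 skipping reads, and its order across libraries is not readable at this depth. Just outside the threshold lay the 161-nt exon of Dhx33 (chr11:71001519-71001679), at 0.91 in the triple knock-down in TKO, against 0.99 in TKO (adjusted Fisher p = 0.00439), and at 0.90 for HP1beta, against 0.98 in WT (adjusted Fisher p = 0.0129). Likewise the steady 57-nt exon of Lsm14a was at 0.93 for HP1alpha and 0.92 for HP1gamma, against 1.0 in WT (adjusted Fisher p = 4.29e-09 and 1.59e-07).

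Among other helicase exons, those of Dhx40, Ddx51 and Ddx4 were included at high levels with 0 skipping reads wherever they were listed. Exons of 183 and 132 nt of Dhx40 lay at 0.86 to 0.96 in the 5 knock-downs, against 1.0 in both TKO and WT, with 0 skipping reads in all 7 libraries. The 64-nt exon of Ddx51, another helicase of ribosome assembly, stayed at 0.97 or 0.98. Ddx4 was listed only in the untransfected cells, with its 78-nt exon at 0.98 in TKO and in WT from 76 and 78 inclusion reads. The 135-nt exon of Ddx58 was at 0.92 in the triple knock-down in TKO, 0.60 in TKO and 0.80 in WT, with 40, 62 and 44 inclusion reads and 0 skipping reads, and was not listed in the other libraries. The 2 exons of Dhx16 lie next to each other and stood at opposite ends: that of 95 nt (chr17:35890710-35890804) was at 0.00 in every library while that of 174 nt was nearly always included. In the catalytic-stage and release group (Dhx16, Dhx35 and Prpf18, 4 events) and in the mRNA export group (Ddx39a, 1 event) 0 exons were called in the 11 comparisons. Each comparison tested 3 or 4 exons of the former and 1 of the latter, and 0.0 to 12.3% of all tested exons were called. With so few exons tested, 0 calls do not set these groups apart from all exons.

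Whether the response to the triple knock-down differed between TKO and WT cells was tested directly by comparing odds ratios over 4 libraries with the exact test of Zelen, where the platform difference is in both arms. Of 40 members with enough reads 3 were called, against 2.69% of 4344 exons, and 5 had an unadjusted p under 0.05. The 96-nt exon of U2af1l4 had a level difference of -0.27 in TKO and -0.04 in WT (adjusted p = 0.00642 by this exact test). The 68-nt exon of Lsm2 had -0.13 in TKO and -0.04 in WT (adjusted p = 0.00434 by the same exact test). For both exons the untransfected TKO library was the one with 0 skipping reads, and the levels under the triple knock-down were 0.69 in TKO and 0.71 in WT for U2af1l4 and 0.87 in TKO and 0.91 in WT for Lsm2. The exon of Snrnp70 had -0.34 in TKO and -0.27 in WT (adjusted p = 3.6e-05, exact test), while its inclusion reads moved the other way.

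Reads over the members' events also differ with the amount of RNA of each gene, and in these bulk samples fewer cells of a type and less RNA per cell cannot be told apart. Taking the event with most matching reads per gene, the ratio of TKO to WT in RPM lay between 0.467 and 1.88 over 38 genes, with a median of 0.999. Ddx58 stood at 1.88 (95% exact interval 1.58 to 2.23, counting error only), Prpf8 at 1.77 and Ddx42 at 1.76. At the low end, Lsm2 stood at 0.467 (0.436 to 0.500), Dhx34, a helicase of nonsense-mediated decay, at 0.605 (0.491 to 0.744), Snrpb at 0.650, Prpf4b at 0.657 and Snrpe, another Sm protein, at 0.682. Under the triple knock-down the ratio of TKO to WT ran from 0.455 (Prpf39) to 1.77 (Lsm12) over 32 genes. The interval was 0.266 to 0.771 for Prpf39, on 27 reads in TKO and 36 in WT, and 1.67 to 1.88 for Lsm12. Lsm2 stood at 1.04, Prpf8 at 0.554 and Snrpe at 1.35. Ratios for Prpf8, Snrpe and Snrpa1 (0.699 without and 1.34 with the knock-down) thus lay on opposite sides of 1 on the 2 platforms, and no test was made with 1 library per group.

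A list of other spliceosome genes that the name rule does not reach had 38 events in 18 genes. Between TKO and WT 1 of 35 tested exons was called, the 79-nt exon of Slu7 (chr11:43436354-43436432), a factor of the second catalytic step, at 0.32 in TKO and 0.20 in WT (131 inclusion and 148 skipping reads against 51 and 107, adjusted Fisher p = 0.0392). Of all 7695 exons tested between TKO and WT, 4.57% were called. In the other 5 comparisons within a platform 0 of 28 were called, against 0.0 to 0.469% of all tested exons. Against untransfected cells 2 or 3 of 28 to 30 were called, all lower, against 9.37 to 10.9% of all tested exons called lower.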

How the data were processed

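RNA of 14 samples, 2 replicates in each of 7 groups, is held in 7 tables of skipped-exon events, 1 per group, because the authors pooled replicates, per the labels. The inclusion level is a fraction that MISO, a program that estimates isoform shares from reads, gave with an interval, and read counts by isoform match stand beside it, per the file headers. The sources used here do not give the interval's level or the program's version. TopHat2, Bowtie2 and the mm10 build are named, per the submitters' processing notes, and every listed event has at least 100 reads. Another 2 bisulfite and 6 MNase samples were not analysed here.

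Members were placed by a gene table of GRCm38.p6, the assembly of mm10. Gene strand was known for 32 of 39 genes, where it matched for all events, and 10 events had none. Each comparison used a two-sided Fisher's exact test of inclusion and skipping reads with at least 20 in each library, adjusted by Benjamini-Hochberg over all such exons of the series, and a level difference of at least 0.1. Between cell lines, Zelen's exact test was used. With 1 library per group, p-values compare libraries, and they and the intervals (95% Wilson or exact) cover counting error only, as does the upper limit of 3 counts for a count of 0. Scripts (Python 3.11.15, numpy 2.4.6, pandas 2.3.3, scipy 1.17.1, matplotlib 3.10.9) were tested on simulated data. Alternatives were 50 reads, a difference of 0.2, intervals apart, the gene's strand, reads and level moving the same way, and a length-set null (median odds ratio in 8 length classes). Named exons are those called within a platform or in the cell line test, up to 10 per direction and comparison across platforms with intervals apart (1 per gene), the most read exon of each role group, the 10 widest-ranging and those next to the threshold; others were chosen after their values were seen. The members and lists were chosen with earlier results of these data known.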

Additional observations from a re-analysis of the deposited data

Results flagged for a closer look

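The response to the triple HP1 knock-down (level with knock-down minus level without) differed between the TKO and WT libraries for 3 of 40 tested members when odds ratios were compared with the exact test of Zelen. Of all 4344 exons tested, 2.69% were called. The response in TKO minus that in WT was -0.23 for the 96-nt exon of U2af1l4, -0.09 for the 68-nt exon of Lsm2 and -0.07 for the 1360-nt exon of Snrnp70. For the exons of U2af1l4 and Lsm2 the untransfected TKO library had 0 skipping reads, and each group is 1 library. The siRNA doses also differed between the lines, and the part of dose was not tested. For Snrnp70 the inclusion share of distinguishing reads was higher after the knock-down in both lines.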

How the results depend on the processing

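No paired analysis was possible because the replicates of each group were pooled before deposit, and for the same reason no replicate could be left out. With a level difference of at least 0.2, 3 members were called for the triple knock-down in TKO, 4 for that in WT, 2 for HP1alpha, 2 for HP1beta and 3 for HP1gamma, against 7.4%, 6.47%, 7.03%, 6.94% and 6.6% of all tested exons, and the test between cell lines called 1, against 0.806%. With the length-set null the counts were 5 (triple knock-down in TKO), 4 (triple in WT, 1 higher and 3 lower) and 3 (HP1gamma), against 8.33%, 7.91% and 8.61%, and with at least 50 reads the count for HP1gamma was 3, against 12.5%; the cause was not tested. Other counts were chosen after seeing the data. With intervals apart and a level difference of at least 0.1, 4 of 66 members differed between TKO and WT without siRNA, against 6.21% of listed exons. With siRNA 1 of 54 did, against 1.29%. Against untransfected cells the counts were 13 of 56 (triple knock-down in TKO), 12 of 56 (triple in WT), 11 of 62 (HP1alpha), 9 of 61 (HP1beta) and 10 of 59 (HP1gamma). The shares of all listed exons were 18.8%, 17.8%, 17.3%, 17.5% and 18.4%. With inclusion reads set against all other matching reads, 5 of 66 were called between TKO and WT, against 6.45%. In the same order against untransfected cells, 7 of 47, 13 of 45, 11 of 52, 8 of 51 and 7 of 49 were called. The shares of all exons there were 25.7%, 25.6%, 25.3%, 26.2% and 26.5%. Of 32 single called values none could change sign, because the settings leave the level difference as it is. With a difference of 0.2, 17 were lost, with the length-set null 12 and with intervals apart 2. When reads and level had to move the same way 5 were lost, all of Snrnp70. Another 7 had fewer than 50 reads in a library and so could not be called at that minimum: both Prpf39 (163 nt) calls, Prpf4b in both triple knock-downs and for HP1gamma, Dhx30 (115 nt) and U2af2. Restricting to the gene's strand could lose none, because no member event lay on the other strand and events of unknown strand were kept. At the lower depth of the knock-down libraries 41 to 49 of 69 members could be tested against untransfected cells.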
